A study of Mus musculus with 34 samples.

Results

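The AP-1 and BATF genes Jun, Junb, Jund, Fos, Fosb, Fosl1, Fosl2, Batf, Batf3 and Atf3 were followed in resting and LPS-activated B cells of the mouse spleen. They were taken by gene symbol from a deposited RNA table, in which these 10 genes each had 1 of the 23812 rows. The series holds 34 samples. The cells were splenic B cells of the CD43- fraction from C56BL/6J mice of 6 to 8 weeks, selected with magnetic beads. Activated cells ("aB") were kept for 3 days with LPS, a bacterial cell wall component, at 10 µg per ml. Resting cells ("rB") were the control. The resting samples carry the same culture text as the activated ones in the labels, so how they were handled is not settled by the labels. The growth text gives the dose per µl, and the treatment text and the series design give it per ml. No allele or transgene is named for either group. RNA-seq had 2 samples per group, and their labels do not say whether these came from separate animals or cultures. The p-values below thus speak of how far apart these 4 libraries lie, and that distance may be partly technical. FAIRE-seq (open chromatin), STARR-seq (fragments of open chromatin tested for enhancer activity in a reporter plasmid), H3K27ac and H3K4me3 peaks and Hi-C contacts were used as 1 list per assay, each from activated cells. STARR-seq was sampled at 12 h and 24 h of the reporter, with 2 samples of the plasmid library, and its 1 list is not split by time. That list shows activity of fragments on a plasmid and not the state of the locus itself. The other lists show what was present on day 3, and none allows a comparison with resting cells. The resting H3K27ac and H3K4me1 samples of the series were not analysed here.

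AP-1 factors are dimers of basic leucine zipper (bZIP) proteins. JUN proteins can pair with each other or with FOS proteins, which cannot pair among themselves, and BATF proteins pair with JUN in place of FOS. BATF-JUN dimers bind DNA together with the interferon regulatory factors IRF4 or IRF8, and in B cells BATF is needed for antibody class switching. ATF3 is a stress-induced member of the same superfamily. Fos, Fosb, Jun and Junb are immediate early genes, which means that their RNA rises and falls quickly after a stimulus, cell isolation included.

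The sequence in front of a gene is where such factors could act on the AP-1 genes themselves. RefSeq (GRCm38.p6) gave a start for 9 of the 10 genes, all but Fosl1. The 250 bases before the start are shown for Atf3 (chr1:191183334-191183583, minus strand) and Batf (chr12:85686470-85686719, plus strand), the genes with the largest rise. Batf3 (chr1:191098164-191098413, plus strand) is shown as the called gene that fell, and Fos (chr12:85473640-85473889, plus strand) and Jun (chr4:95052223-95052472, minus strand) because they hold related motifs. Each reads 5′ to 3′ on the gene's own strand, and capitals mark TGACGT (the core shared with the CRE, a CREB and ATF site) on either strand or TGACATCA (the AP-1-like form of the Jun promoter).
Atf3: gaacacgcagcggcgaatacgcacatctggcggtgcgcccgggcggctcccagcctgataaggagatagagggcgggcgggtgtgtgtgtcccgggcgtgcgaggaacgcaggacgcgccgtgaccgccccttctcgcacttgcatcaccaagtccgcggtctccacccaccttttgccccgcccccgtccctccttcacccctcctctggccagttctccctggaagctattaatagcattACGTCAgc
Batf: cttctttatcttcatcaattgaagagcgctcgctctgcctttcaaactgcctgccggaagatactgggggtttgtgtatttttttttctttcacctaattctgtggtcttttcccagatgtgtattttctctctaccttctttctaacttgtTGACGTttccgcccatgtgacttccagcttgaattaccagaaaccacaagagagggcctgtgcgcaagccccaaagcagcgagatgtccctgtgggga
Batf3: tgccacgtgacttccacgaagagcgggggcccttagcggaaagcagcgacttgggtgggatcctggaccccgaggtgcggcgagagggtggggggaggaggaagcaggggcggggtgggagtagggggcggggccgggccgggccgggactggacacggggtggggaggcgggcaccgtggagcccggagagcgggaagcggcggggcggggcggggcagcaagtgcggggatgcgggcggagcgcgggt
Fos: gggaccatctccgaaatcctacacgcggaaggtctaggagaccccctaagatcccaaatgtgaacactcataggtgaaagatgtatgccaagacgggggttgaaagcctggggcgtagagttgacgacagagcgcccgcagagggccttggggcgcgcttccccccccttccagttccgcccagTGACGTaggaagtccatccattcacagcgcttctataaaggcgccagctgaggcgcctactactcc
Jun: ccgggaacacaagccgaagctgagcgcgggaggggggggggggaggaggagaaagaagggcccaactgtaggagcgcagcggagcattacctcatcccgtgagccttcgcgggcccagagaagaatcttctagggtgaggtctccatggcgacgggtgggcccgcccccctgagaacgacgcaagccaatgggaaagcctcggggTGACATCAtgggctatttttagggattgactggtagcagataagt

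TGACGT lay at bases -66 to -61 from the start in Fos, at -98 to -93 in Batf and at -8 to -3 on the opposite strand in Atf3. It is found in 6.47% of the 32851 mouse promoters in the table, so 3 of 9 genes of this group held it. Jun alone held TGACATCA (-45 to -38), which 2.93% of promoters hold. None of the 9 windows held the AP-1 site TGANTCA (6.75% of promoters), the full CRE TGACGTCA (1.55%), which contains TGACGT, or the SRF site known as the CArG box (1.47%). CCAAT lay in Jun and Junb (33.8% of promoters) and TATAAA in Fos (12.4%). Both strands were searched. The motifs were chosen with the sequences in view. A match is a description of the letters and not a bound site, and a missing match says only that the letters are not in these 250 bases.

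In RNA, Batf and Atf3 were much higher in activated cells, Batf3 was lower, and the classic early genes Jun, Junb, Fos and Fosb did not pass the test. Values are FPKM, a fragment count divided by transcript length and library size, and 8 of the 10 genes reached the minimum of 1 FPKM in at least 2 samples and were tested. limma on log2(FPKM + 1) called 2 higher and 1 lower at an adjusted p under 0.05, and 5 were not called. Over all 10863 tested genes 28.2% were called higher and 26.2% lower, and a count of 2 higher and 1 lower among 8 is not far from those shares. The groups did not overlap for 7 of the 10 genes (5 of the 8 tested), while 80.6% of all tested genes had groups that did not overlap. The median difference was 0.03 on the log2 scale over all tested genes. In the plot of FPKM by sample the rises of Batf and Atf3 stand well clear of the distance between samples, and the drop of Batf3 is small.

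**Figure D1:**
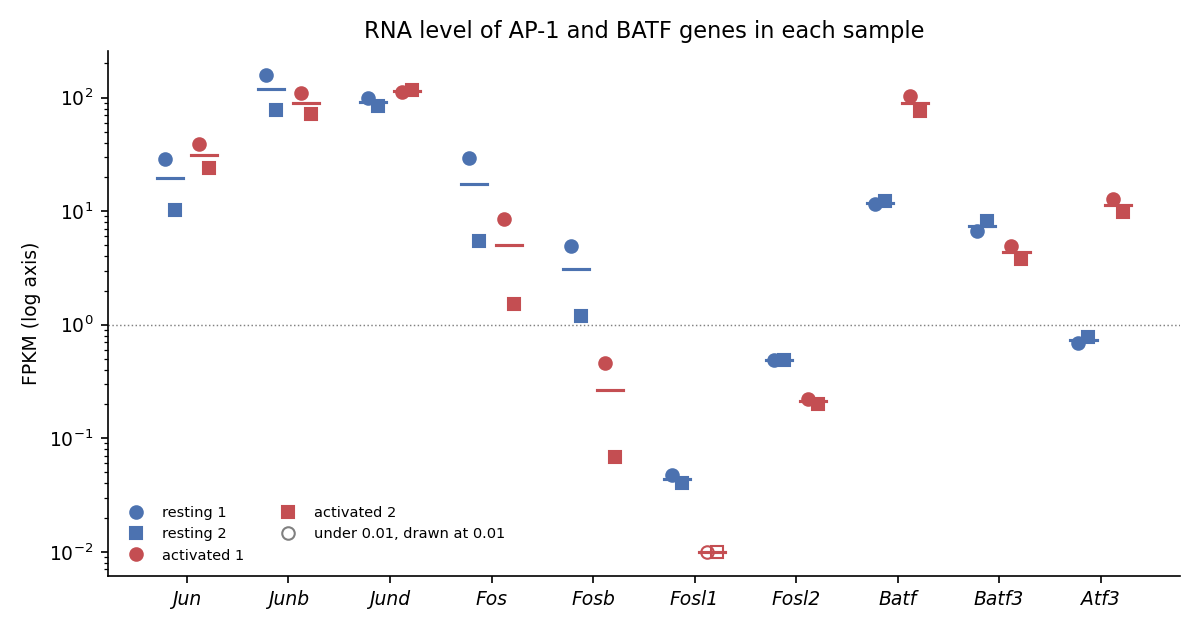
FPKM of the 10 genes in each RNA sample on a log axis; circles are sample 1 and squares sample 2 of a group, bars are group means, blue is resting and red activated. Batf goes from 11.6 and 12.2 to 103.8 and 76.6 FPKM, while Fos goes from 29.4 and 5.41 to 8.46 and 1.54 FPKM, with overlapping groups. The dotted line is 1 FPKM.

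The makeup of the family therefore differed between the groups. Per length, Batf made up 3.40% and 6.06% of the summed FPKM of the 10 genes in the resting samples and 26.5% and 25.2% in the activated samples. The 3 Jun genes together held 84.2% and 86.0% at rest and 66.7% and 69.7% after activation. The FOS genes held 10.3% and 3.54% at rest and 2.33% and 0.595% after activation. Batf and Batf3 summed gave 0.524 and 2.86 times the summed FPKM of Fos, Fosb, Fosl1 and Fosl2 in resting samples 1 and 2, and 11.9 and 44.5 times in activated samples 1 and 2. That ratio was higher in both activated samples than in either resting one, and it also differed several-fold inside each group. These are shares of RNA and say nothing of protein or dimers. With 2 samples per group an exact permutation test of a single value cannot go below p = 0.333 (two-sided), so no test is given for them.

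Ordered by level, the resting means ran Junb, Jund, Jun, Fos, Batf, Batf3, Fosb, Atf3, Fosl2 and Fosl1. There Junb and Jund overlapped in range, as did Jun with Fos and Fos with Batf, so these neighbours do not differ beyond their spread. In activated cells the order was Jund, Junb, Batf, Jun, Atf3, Fos, Batf3, Fosb, Fosl2 and Fosl1. Junb and Batf overlapped there, and so did Fos with Batf3 and Fosb with Fosl2. By these means Batf stood at rank 5 at rest and at rank 3 after activation, but in resting sample 2 alone Batf (12.2 FPKM) was already above Jun (10.3 FPKM) and Fos (5.41 FPKM). Atf3 stood at rank 8 and rank 5.

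Batf (chr12:87027670-87050037 on mm9) is the B and T cell member that pairs with JUN and IRF proteins. Its level was 11.6 and 12.2 FPKM in the resting samples and 103.8 and 76.6 FPKM in the activated samples. Both activated samples lay far above both resting ones. The mean was 7.59-fold higher, 90.2 ± 19.3 against 11.9 ± 0.46 FPKM (SD, n = 2 per group), with a log2(FPKM + 1) difference of 2.81 ± 0.20 (SE; limma adjusted p = 0.000112). It was called under all 11 other settings tried, with log2 differences of 2.59 to 3.02.

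Atf3 (chr1:192994176-193007212) encodes the stress-response factor ATF3, which forms repressive homodimers as well as dimers with JUN. It was at 0.695 and 0.777 FPKM in the resting samples and at 12.9 and 9.82 FPKM in the activated samples. Both resting samples were below the minimum for testing, so the gene was tested only because of its activated level and a difference was bound to follow. The mean was 15.4-fold higher and the log2(FPKM + 1) difference 2.82 ± 0.18 (SE; limma adjusted p = 8.98e-05). It could not be tested without either activated sample, and it was called under the 9 other settings where it was tested. The 3 other tested genes with the nearest log2 values over the 4 samples were Fam64a (distance 0.35), Car13 (0.37) and Chek1 (0.41), with resting means of 0.646, 0.925 and 0.853 FPKM and activated means of 13.2, 9.99 and 12.6 FPKM.

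Batf3 (chr1:192922293-192932822) is a BATF paralog known above all from classical dendritic cells. Its resting values of 6.72 and 8.16 FPKM were both above the activated values of 4.98 and 3.76 FPKM. The resting mean was 1.70-fold higher, and the log2 difference was -0.66 ± 0.19 (SE; limma adjusted p = 0.0230). That call did not survive every setting. The adjusted p was 0.0511 without the filter on low values, 0.0694 without activated sample 2, 0.0675 without resting sample 1 and 0.173 without resting sample 2. Of the dendritic cell markers, 3 of 4 were tested, Flt3 was higher and Zbtb46 and Itgax lower in activated cells, and Siglech was at 0 in both activated samples. Their summed level was 20.5 and 19.7 FPKM in the resting and 27.04 and 16.2 FPKM in the activated samples. The activated sum was mostly Flt3, at 25.9 and 15.9 FPKM there and at 5.25 and 4.36 FPKM at rest. Itgax went from 11.5 and 9.81 FPKM to 0.0614 and 0.0128 FPKM, and Zbtb46 from 3.23 and 2.83 FPKM to 1.07 and 0.318 FPKM. Itgax, under 1 FPKM in both activated samples, was tested only because of its resting level. Whether dendritic cells in the resting samples had a part in the Batf3 difference was not tested, and in such bulk samples fewer cells of a type and less RNA per cell cannot be told apart.

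Jund (chr8:73221638-73224515) and Junb (chr8:87500808-87502647), both on chromosome 8, had the highest mean levels of the group at rest. After activation Jund was highest, and Junb and Batf overlapped in range. JUND is the JUN protein found in many resting cells, and JUNB is induced by many stimuli. Jund was at 98.4 and 84.5 FPKM at rest and at 113.0 and 115.7 FPKM after activation, without overlap. The difference was small (0.32 ± 0.20 on the log2 scale, SE; limma adjusted p = 0.201). Junb was at 159.6 and 78.4 FPKM at rest and at 109.5 and 71.6 FPKM after activation, and the groups overlapped. Its difference of -0.33 ± 0.37 (limma adjusted p = 0.475) turned to 0.17 without resting sample 1. Neither gene was called under any of the 11 other settings.

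Jun (chr4:94715727-94718913), the founding AP-1 gene, was at 28.6 and 10.3 FPKM in resting samples and at 38.9 and 24.2 FPKM in activated samples, which overlap. The log2 difference was 0.79 ± 0.51 (SE; limma adjusted p = 0.248). Without resting sample 1 it was 1.49 with an adjusted p of 0.0118, and without resting sample 2 it was 0.10 with an adjusted p of 0.834. With single samples left out, Jun was called only without resting sample 1.

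Among the FOS genes none was called in either direction. Fos (chr12:86814851-86818219) was at 29.4 and 5.41 FPKM in resting samples 1 and 2 and at 8.46 and 1.54 FPKM in activated samples 1 and 2. The groups overlapped, and the difference of -1.51 ± 1.20 (SE, log2 scale; limma adjusted p = 0.369) did not exceed the spread between samples. Fosb (chr7:19888045-19895394), a close relative of Fos, was at 4.97 and 1.19 FPKM at rest and at 0.459 and 0.0685 FPKM after activation, with no overlap. It narrowly missed the threshold (-1.53 ± 0.51, limma adjusted p = 0.0568) and passed it with a pseudocount of 0.1 (-3.06, adjusted p = 0.0273) and with limma without its trend and robust options (adjusted p = 0.0321). Both activated samples were below the minimum for testing, so Fosb was tested only because of its resting level. A difference was thus bound to follow, and Fosb could not be tested without either resting sample.

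Fosl2 (chr5:32438845-32460212) was under 1 FPKM in all 4 samples, 0.491 and 0.485 FPKM at rest and 0.222 and 0.200 FPKM after activation, so the filter on low values left it out of the test. Without that filter Fosl2 was called lower (log2 difference of -0.30, SE 0.07, adjusted p = 0.0324, limma), on a scale of log2(FPKM + 1) that understates changes of low genes. Fosl1 (chr19:5447698-5455938) was at 0.0475 and 0.0400 FPKM at rest and was listed at almost 0 in both activated samples. No fold is given for it. Fosl1 also overlaps the neighbouring gene Ccdc85b by 2776 bases, and the strand of the counting is not given in the sources used here. For Fosb, whose log2 difference is the lowest among the tested genes of the group, the nearest other genes over the 4 samples were Rgs1 (distance 2.31), Fscn1 (2.48) and Itgax (2.58). Only genes with a mean of at least 5 FPKM were searched, and Fosb was under 5 FPKM in all 4 samples. Genes at its level were thus left out, so these distances cannot be set against those of the genes nearest to Atf3.

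Fos, Fosb, Jun and Junb stood apart by the distance between the samples of a group. Sample 1 was above sample 2 by 5.43-fold at rest and 5.50-fold after activation for Fos, and by 4.18-fold and 6.70-fold for Fosb. The ratios were 2.77 and 1.61 for Jun and 2.04 and 1.53 for Junb. These 4 of the 8 tested genes were at least 1.5-fold above sample 2 in both groups, a limit chosen after the values were seen, against 0.580% of all tested genes. Batf, Batf3, Atf3 and Jund had ratios between 0.823 and 1.36. A list of 9 early genes known to rise when cells are handled, among them Egr1, Ier2 and Dusp1, was higher in resting sample 1 than in resting sample 2 for 9 of 9 and higher in sample 1 of both groups for 6 of 9. Of all tested genes 38.1% were higher in resting sample 1 and 18.9% in sample 1 of both groups. Of the 7 of these genes that were tested, 1 was higher and 3 were lower in activated cells. The summed level of the list was 307.8 and 239.6 FPKM at rest and 243.5 and 163.1 FPKM after activation. The part of handling in the Fos and Jun values was not tested. The plot of sample 1 over sample 2 shows Fos, Fosb, Jun and Junb outside the main cloud of genes.

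**Figure D2:**
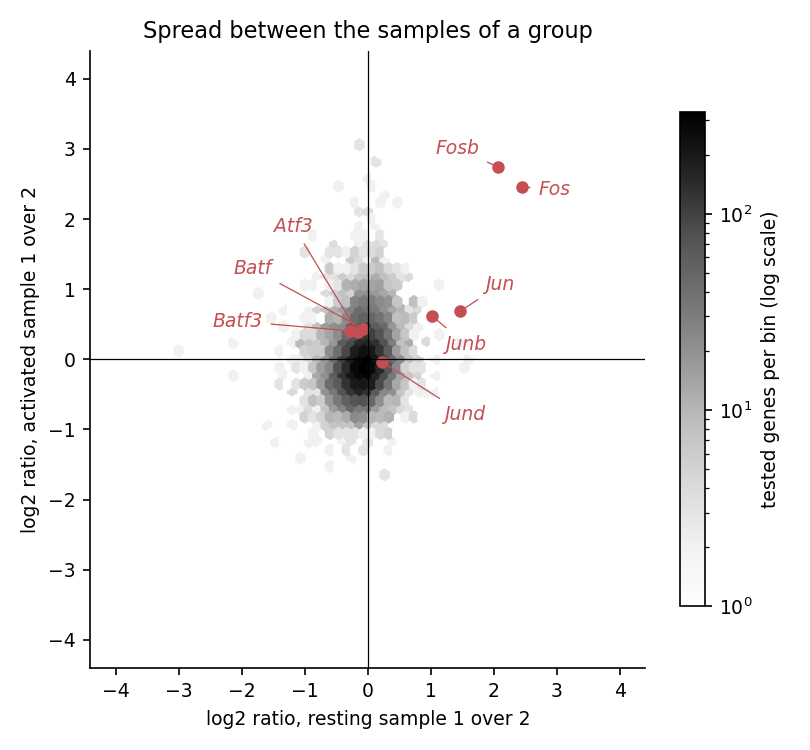
log2 ratio of sample 1 over sample 2 in the resting group (horizontal) and in the activated group (vertical); grey bins count tested genes on a log scale, red points are the 8 tested AP-1 and BATF genes. Fosb, Fos, Jun and Junb lie to the upper right of the main cloud of genes, and the other 4 lie inside it; 214 tested genes with a value of 0 or a ratio beyond the axes are not drawn.

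The cells were B cells by their markers. Cd79a, Cd79b, Ms4a1 and Pax5 were present in all 4 samples, and the whole B cell list summed to 2922 and 3330 FPKM at rest and to 1808 and 1328 FPKM after activation. Of its 5 genes 4 were called lower and 0 higher by limma, with a median of -0.97 on the log2 scale. FPKM summed to between 244602 and 287884 per sample, and the files hold no read totals, so the depth is unknown. The resting samples also held RNA of other cells. Summed macrophage markers were 403.4 and 751.5 FPKM at rest and 3.72 and 11.5 FPKM after activation, where C1qa and C1qb were at 0, and 6 of 7 were called lower. The distance between the resting sums was mostly that of Lyz2, the marker not called, at 57.0 and 363.3 FPKM in resting samples 1 and 2. C1qa was at 90.2 and 102.6 FPKM there and Cd68 at 24.5 and 23.7 FPKM. Erythroid markers were at 420.2 and 2467 FPKM at rest and at 11.7 and 4.35 FPKM after activation, and 4 of 4 matched ones were lower. Markers of rarer spleen cells followed the same direction. Neutrophil markers summed to 1.40 and 25.9 FPKM at rest, T cell markers to 9.94 and 14.9 FPKM and NK cell markers to 6.12 and 11.7 FPKM, against at most 1.01 FPKM in any activated sample. Endothelial markers, mostly Pecam1, summed to 67.8 and 55.6 FPKM at rest and to 25.5 and 17.7 FPKM after activation. The macrophage (mostly through Lyz2), erythroid, neutrophil, T cell and NK cell sums were higher in resting sample 2. That sample also had the lower Fos, Fosb, Jun and Junb. The part of these other cells in the resting levels was not tested.

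Of the other bZIP genes that can pair with AP-1 proteins, 13 of 15 were tested. In activated cells 2 were higher and 6 lower, with a median of -0.43 on the log2 scale. Over all tested genes 28.2% were called higher and 26.2% lower, and the counts of this and the other lists stand beside those shares. Mafg and Nfe2l1 rose, from 7.73 to 16.8 and from 30.2 to 59.4 FPKM in the mean (limma adjusted p = 0.00742 and 0.00479). Maf and Nfe2 were among those that fell (limma adjusted p = 7.50e-05 and 0.00119). Maf is known from macrophages and Nfe2 from erythroid cells, and they fell beside the macrophage and erythroid markers given above. Whether such cells had a part in these 2 falls was not tested. Maf was at 5.85 and 5.51 FPKM at rest and at 0.182 and 0.171 FPKM after activation. Bach2, a bZIP repressor that holds back plasma cell formation, was at 43.2 and 37.2 FPKM at rest and 11.7 and 10.7 FPKM after activation (limma adjusted p = 0.000276). This gene was named after its values were seen. The count of 8 called genes was 5 without either resting sample, and the median, then over 10 tested genes, was -0.04 without resting sample 1 and -0.08 without resting sample 2.

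Irf4, which encodes a DNA-binding partner of BATF-JUN, was higher in activated cells, at 154.0 and 224.2 FPKM against 50.2 and 52.0 FPKM at rest (log2 difference 1.84, limma adjusted p = 0.00108). Irf8, the other partner, was at 137.4 and 175.7 FPKM at rest and at 188.3 and 150.5 FPKM after activation, with overlapping groups, and was not called. So 1 of these 2 genes passed the test.

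The MAP kinase cascade carries signals to JUN and FOS proteins and genes. Of its 18 genes, all tested, 1 was higher, 7 were lower and 10 were not called, with a median of -0.31. Rps6ka1, an ERK-activated kinase, was the one that rose, from 20.3 to 31.7 FPKM in the mean (limma adjusted p = 0.0133). The largest falls were those of Rps6ka5 (8.49 to 1.64 FPKM), Map2k6 (3.59 to 1.02 FPKM) and Map3k1 (53.1 to 25.3 FPKM; limma adjusted p = 0.000211, 0.00115 and 0.00248). Rps6ka5 encodes the histone kinase MSK1 and Map2k6 an activator of p38. The total of 8 calls was 5 without resting sample 1 and 4 without resting sample 2. Under upper quartile scaling, which shifts all genes downward, 1 was higher and 10 were lower, with a median of -0.49.

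SRF and CREB drive Fos and other early genes. Of 8 genes of these factors and their cofactors 1 was higher and 3 lower, with a median of -0.09. Over all tested genes the shares were 28.2% and 26.2%. Crem, a CREB relative, rose from 6.28 to 10.1 FPKM, and the SRF cofactors Mkl1 (26.9 to 10.7 FPKM) and Mkl2 (5.31 to 2.59 FPKM) and Creb1 (24.2 to 16.2 FPKM) fell (limma adjusted p = 0.000672 to 0.0282 for the 4). Those 4 calls became 2 without activated sample 1 and 1 without either resting sample, and the median ran from -0.22 to -0.04 with 1 sample left out. Under upper quartile scaling none was higher and 3 were lower, with a median of -0.26.

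Turnover regulators act on the stability of AP-1 RNA or protein, and not all of those listed lower it. Of the 8 genes, all tested, 0 were higher and 2 were lower by limma, with a median of -0.36. A count of 2 lower among 8 is near the 26.2% called lower over all tested genes. Zfp36l2, an RNA-binding protein that destabilizes early-gene RNA, was at 116.5 and 66.6 FPKM at rest and at 18.9 and 22.4 FPKM after activation (limma adjusted p = 0.00134). Det1, part of a ubiquitin ligase for JUN, went from 8.53 to 5.92 FPKM in the mean (limma adjusted p = 0.0398). Under upper quartile scaling 5 of the 8 were called. The count was 4 without activated sample 1 and 1 without any other single sample.

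Of 12 genes named in textbooks as AP-1 or BATF targets 10 were tested, 7 were higher and 2 lower, with a median of 2.19. Il6 and Il10, named for this reason, entered the test only through their activated level. Without activated sample 1 or 2, when 8 genes were tested, the median was 1.04 or 0.97, and without resting sample 1 or 2, when 9 were tested, it was 3.19 or 3.28. Prdm1, the plasma cell regulator, was at 1.23 and 1.26 FPKM at rest and at 61.3 and 75.8 FPKM after activation. Il2ra, the alpha chain of the IL-2 receptor, went from 0.973 to 25.7 FPKM in the mean. Prdm1 and Il2ra were both called (limma adjusted p = 1.58e-05 for Prdm1 and 5.91e-05 for Il2ra). Il2ra was at 0.871 FPKM in resting sample 1, under the minimum for testing, so it too was tested only because of its activated level. Plaur (31.9 to 0.796 FPKM) and Ccnd1 (14.6 to 0.376 FPKM), targets known from other cell types, fell (limma adjusted p = 3.92e-05 and 4.34e-05). Plaur is also expressed by macrophages, whose markers fell as described, and the part of those cells in the fall of Plaur was not tested. In the plot of the lists the targets have the highest median, and the list still holds genes on both sides of 0.

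**Figure D3:**
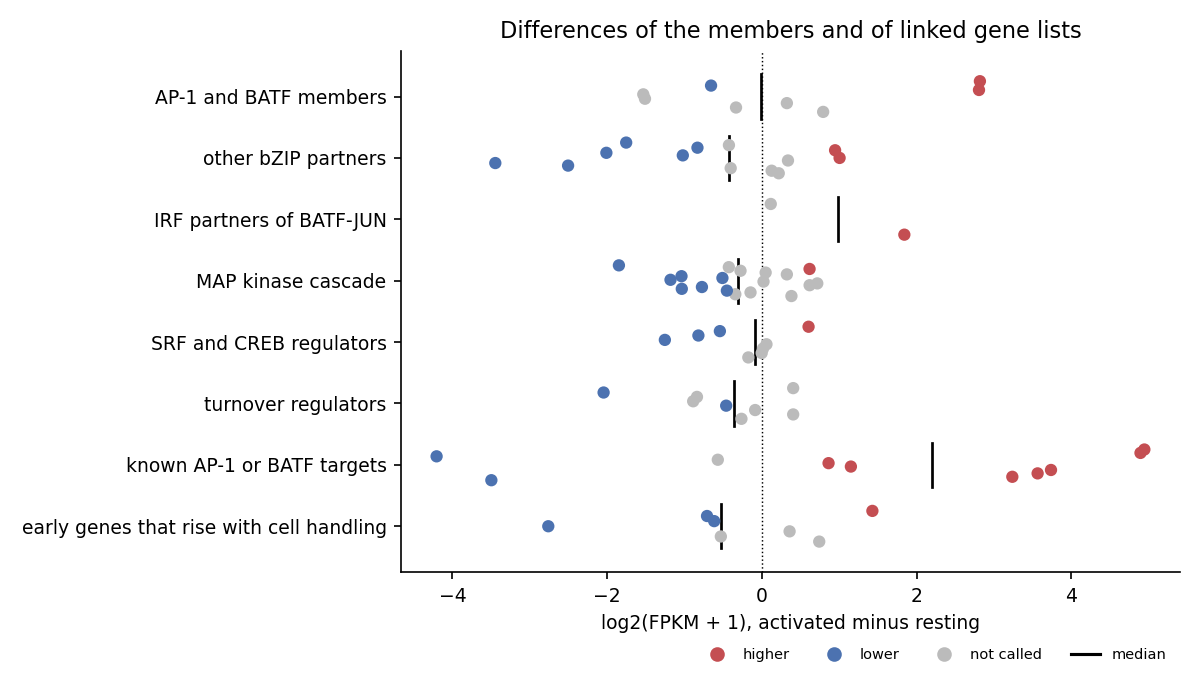
Difference in log2(FPKM + 1), activated minus resting, for each tested gene of the group and of 7 linked lists; red was called higher, blue lower and grey not called by limma, and the black bar is the median. The medians run from -0.53 (early genes that rise with cell handling, -0.29 without resting sample 1) to 2.19 (AP-1 or BATF targets, 0.97 without activated sample 2).

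At the level of chromatin all 10 genes had FAIRE, H3K27ac and H3K4me3 peaks in activated cells within the locus extended by 10 kb. Of all table loci 65.9% had FAIRE, 56.8% H3K27ac and 60.6% H3K4me3 peaks there, and of the loci of tested genes 96.2%, 92.9% and 93.8%, so expressed genes of any kind nearly all had them. STARR peaks lay in the windows of 8 of 10, all but Fosl1 and Batf3, against 45.0% of all loci and 72.1% of tested ones. A super-enhancer, a long H3K27ac domain of which the authors list 48, lay at Junb only, against 0.307% of all loci. The peak lists hold no height, so strength cannot be compared.

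STARR-positive DNA lay at the start itself in many of these genes. Within 1 kb of the start, 7 of the 9 genes with a known strand had a STARR peak, against 26.8% of all such loci and 50.8% of those of tested genes. The peaks spanned the start in Jun (-207 to 93 bases), Junb (-211 to 89), Atf3 (-208 to 92) and Batf (-261 to 39). In Jun, Atf3 and Batf they cover most of the stretch printed above where the starts of both builds are the same base. In Fos (-444 to -144) and Fosb (-474 to -175) the peak lay just upstream, and in Jund (518 to 818) inside the locus. H3K4me3 lay within 1 kb of the start in 9 of 9 genes, against 52.2% of all such loci and 88.8% of those of tested genes. Batf3 had 10 FAIRE peaks and no STARR peak in its window, the same number of FAIRE peaks as Atf3. Fosl2 had its single STARR peak at 3462 to 3761 bases.

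**Figure D4:**
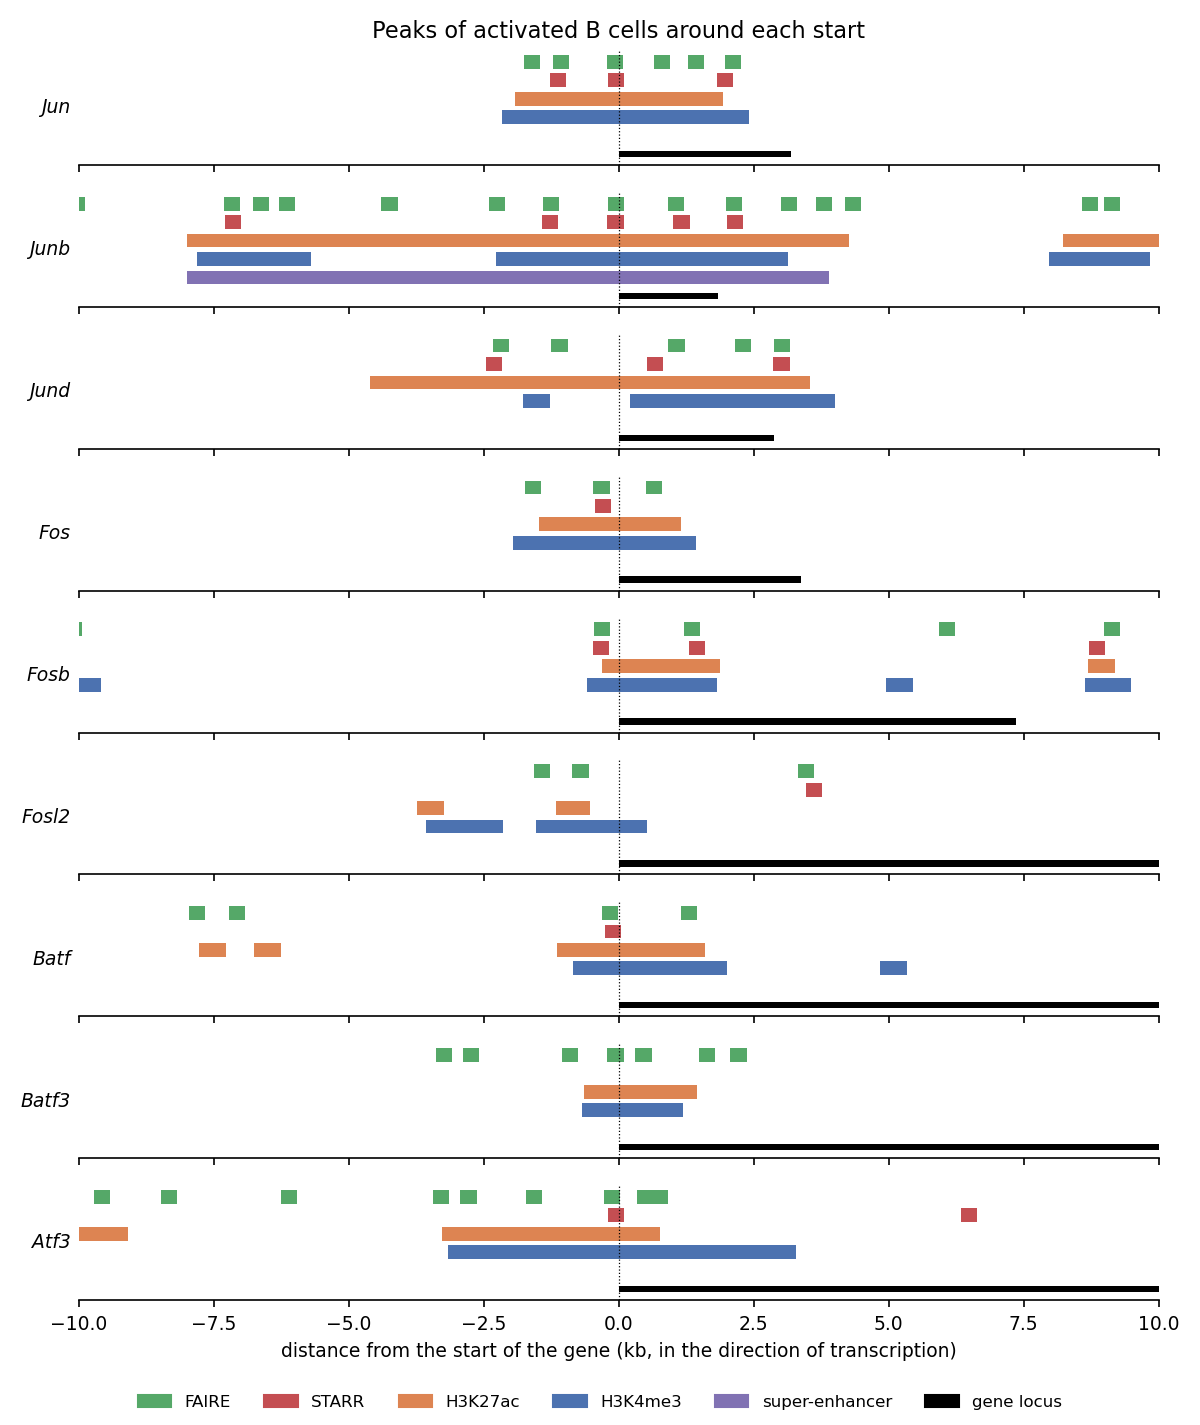
Peaks of activated cells within 10 kb of the start of the 9 genes with a known strand; the horizontal axis is distance in kb along the direction of transcription, and each coloured bar is 1 region of a deposited list, with the gene locus in black. STARR regions sit on or just upstream of the start in Jun, Junb, Fos, Fosb, Batf and Atf3, and the super-enhancer spans the Junb start.

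Several of the marked domains were long for their list. The H3K27ac peak over Junb measured 12.26 kb, and 34 of 23938 peaks were that long or longer. The super-enhancer there ran 11.9 kb, from -7998 to 3898 bases of the start, and it held 5 of the STARR peaks of Junb. Over Jund the H3K27ac peak was 8.163 kb long (134 as long or longer). The H3K4me3 peak over Atf3 was 6.448 kb long (86 of 16861 as long or longer), and that over Junb 5.408 kb and over Jun 4.569 kb. Batf had 8 H3K27ac peaks, of which those at 15836 to 17305 and 17930 to 20629 bases lay inside the locus, toward its far end.

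Fosb and Fosl2 had these marks although their RNA was under 1 FPKM in activated cells. The Fosb start lay in a 2.417 kb H3K4me3 and a 2.196 kb H3K27ac peak. The activated mean was 0.264 FPKM for Fosb and 0.211 FPKM for Fosl2. Of 619 loci with an activated mean under 1 and a resting mean of at least 1 FPKM, the class of Fosb, 27.3% had both marks within 1 kb of the start and 21.8% had FAIRE as well. Of all 8966 loci with an activated mean under 1 FPKM, which include Fosl2, 7.57% had both marks and 6.29% had FAIRE as well. Of loci with a mean of at least 1 FPKM 88.3% had both marks, and Fos, at 8.46 and 1.54 FPKM in the activated samples, belongs there. The Fos start lay in a 3.392 kb H3K4me3 and a 2.633 kb H3K27ac peak. Fosb and Fosl2 both had the marks and FAIRE at the start, and a STARR peak lay there in Fosb and in 14.4% of the loci of its class.

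Members of the group lie together on 2 chromosomes. Fos and Batf are 209.4 kb apart on chromosome 12 with only Jdp2, a further AP-1 partner and repressor, between them in the table. That interval held 14 FAIRE, 10 H3K27ac, 4 H3K4me3 and 3 STARR peaks. The 3 genes did not move together: Batf rose, while Jdp2 was at 1.60 and 2.10 FPKM at rest and 2.62 and 2.02 FPKM after activation (not called), and Fos was not called. On the other side of Fos, Tmed10, a gene of vesicle transport, was higher in activated cells (27.2 to 54.5 FPKM, limma adjusted p = 0.00324). Batf3 and Atf3 are 61.35 kb apart on chromosome 1, with Fam71a between them and 11 FAIRE, 3 H3K27ac, 1 H3K4me3 and no STARR peaks. They moved in opposite directions. Nsl1, a kinetochore gene on the far side of Batf3, was at 1.59 and 1.97 FPKM at rest and at 9.52 and 12.6 FPKM after activation (limma adjusted p = 0.000262).

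Of the other nearest neighbours, Lsm4 beside Jund and Bre beside Fosl2 were called higher, and Mysm1 beside Jun and AI837181 beside Fosl1 were called lower. Prdx2 and Hook2 beside Junb, Ercc1 beside Fosb, Nenf beside Atf3 and Ccdc85b beside Fosl1 were not called. Fggy, Gm3336, Rtn2, Plb1, Mfsd7c and Fam71a were too low to be tested.

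Hi-C contacts were listed at 9 of the 10 genes, all but Fosl1, against 43.8% of all loci and 81.5% of those of tested genes. Junb had 23, Jund and Fosb 18 each, Batf 9, Jun and Fos 5 each, Atf3 4 and Batf3 and Fosl2 3 each. The median over loci of tested genes was 4, and 183 loci had as many as Junb or more. These 87 distinct contacts are pairs of anchors of 0.5 to 5 kb, and the same place can be listed at several anchor sizes, so they are not independent. Partner anchors within 10 kb of each other joined, Junb had 14 partner regions, Fosb 10, Jund 8 and Batf 6. The authors give for each contact a read count over pooled samples, which ran from 5, the lowest in the list, to 186 here, and a z-score. There are no replicate values.

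Fos and Batf each had a contact with the region of Tmed10, at 98.36 kb from the Fos start with 60 read pairs (z-score 5.67) and at 307.3 kb from the Batf start with 23 read pairs (z-score 3.78). Both genes thus met the same neighbour, at anchors of the same size, but no listed contact joined Fos and Batf directly. Distances are measured from the start, while the anchor at the gene can lie elsewhere in its extended locus. Batf also met Irf2bpl, a gene of a transcriptional regulator, at 1.197 Mb with 10 read pairs, through an anchor at the far end of Batf. The strongest count at Fosb was to Ercc1, 186 read pairs at 31.79 kb, and other anchor sizes listed the same pair. That anchor touched the far end of Fosb and did not hold its start. An Ercc1 contact whose anchor held the Fosb start had 9 read pairs at 34.34 kb. Batf3 met Traf5 (6 read pairs) and Traf3ip3 (7 read pairs), both genes of TRAF signalling. Jun met the gene Fggy at 505.2 kb with 33 read pairs. Junb and Jund, 14.28 Mb apart on chromosome 8, shared a contact of 5 read pairs with a z-score of 16.1. For contacts beyond 10 Mb, of which the list holds 581, the lowest z-score was 11.3 and the median 15.1 with a median of 5 read pairs, so the Junb-Jund contact is a common one for that distance and at the lowest count listed.

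**Figure D5:**
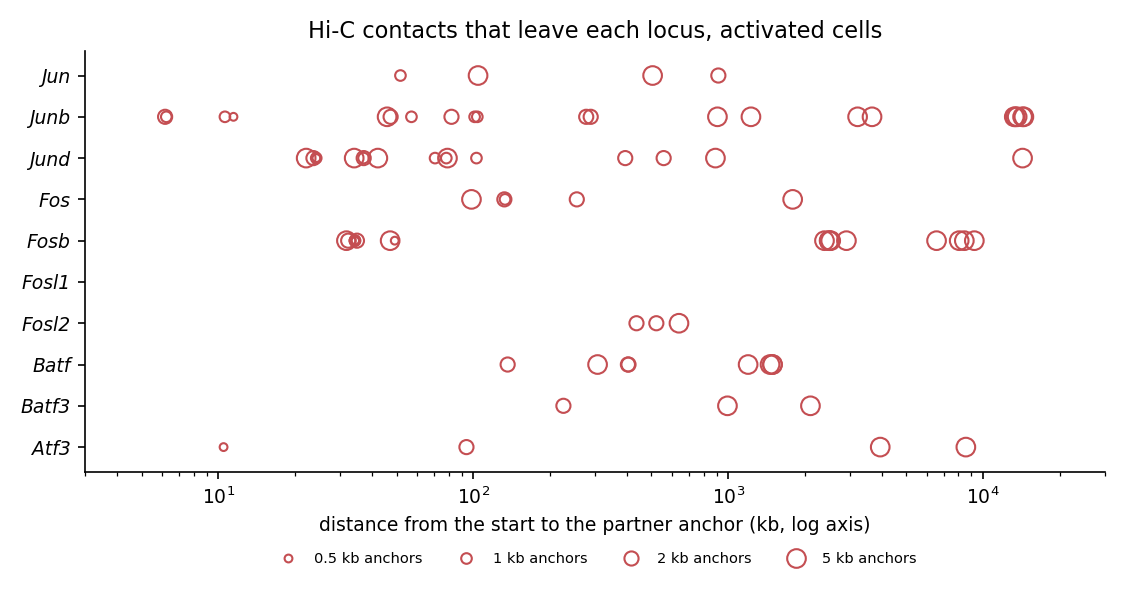
Contacts that leave each locus, by distance in kb (log axis) from the start to the partner anchor; circle size gives the anchor size. Junb reaches from 6.181 kb to 14.45 Mb, and Fosl1 has none.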

How the data were processed

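Per the submitters' processing notes the build was mm9, and TopHat2, STAR, Bowtie, Bowtie2, bedtools and HOMER were used, without roles or versions. The RNA values deposited by the authors carry no named unit and were treated as FPKM, from their decimals and unequal sums. No strand or read totals are given, so depth and counting error are unknown. The RNA values came with 2 unnamed columns, which were not used. Peak lists deposited by the authors (FAIRE, STARR, H3K27ac, H3K4me3, super-enhancers) hold coordinates alone, per the file headers, 1 list per assay. The authors' Hi-C list gives a read count and a z-score (a score) per contact, pooled over samples. Coordinates are printed 1-based.

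A gene entered the test when 2 or more samples had 1 FPKM or more. The fit used limma 3.58.1 (trend, robust) in R 4.3.3 on log2(FPKM + 1), with no block and Benjamini-Hochberg adjustment over all 10863 tested genes. A fold on this scale understates low genes. The script was tested on simulated data. Peaks were counted by an overlap of at least 1 base with the locus extended by 10 kb, contacts with the locus extended by 2 kb. Promoters came from RefSeq (GRCm38.p6), used also for strand. Tables were made with pandas 2.3.3 in Python 3.11.15. The genes, lists, motifs and tests were chosen with earlier results of these data known. Named genes were the 10 members, their nearest neighbours, up to 3 called genes per list and direction with the largest difference, and the 3 genes nearest in log2 values (mean of at least 5 FPKM) to the members with the largest rise and fall. Some genes that this rule names are left out of the text. Alternatives were other pseudocounts, filters, scalings and windows, a block, and each sample left out. Peaks were not read for sequence, as no mm9 genome was used here.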

Additional observations from a re-analysis of the deposited data

How the results depend on the processing

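Of 83 values of the members under another setting, 72 kept their direction and their side of the threshold, 4 lost the call, all for Batf3, 6 gained one (Jun, Fos, Fosb) and 1, Junb without resting sample 1, changed sign (Junb ran from -0.84 to 0.17 with 1 sample left out). The number of members called was 3, 3 or 4 under the other settings that keep all samples apart from the replicate block, and 1 to 3 with 1 sample left out. Over all genes the 5910 calls ran from 2964 to 5693 with 1 sample left out (2964 without resting sample 1, 3324 without resting sample 2). Upper quartile scaling shifted the median of all genes by -0.17 and turned 51.9% higher of the called genes into 40.8% (2524 higher, 3662 lower, against 3066 and 2844), and under it 5 turnover regulators were called; Batf and Atf3 stayed higher and Batf3 lower. With 1 sample left out, which was chosen after the data were seen, calls ran from 5 to 9 for the other bZIP genes (8 with all samples), from 4 to 10 for the MAP kinase cascade (8), from 1 to 4 for SRF and CREB (4), from 1 to 4 for turnover (2) and from 2 to 4 for the handling genes (4). A lone sample in a group is assumed to vary like the other group. The number of members with a peak or contact stayed within 1.5 times under all 21 other windows, overlaps or thresholds, but STARR peaks reached 10 members at 50 kb and 7 with no extension, and contacts reached 10 members at 10 kb. The numbers of peaks and contacts themselves followed the window: 73 FAIRE peaks became 27 with no extension and 176 at 50 kb, 20 STARR peaks 11 and 49, 27 H3K27ac peaks 13 and 57, and 23 H3K4me3 peaks 13 and 53. The 88 contacts became 64 with no extension, 117 at 10 kb and 42 at or above the median read count.

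The labels number the samples 1 and 2 in each group but tie no number to a shared animal, day or batch. Across tested genes the sample 1 minus sample 2 differences of the groups had a Pearson r of 0.12, which is across genes and no test. A fit with the replicate number as a block called 6 members, with Jun (adjusted p = 0.0126), Fos (0.000277) and Fosb (0.00334) added, and 6281 genes in all (limma). The samples share only a number, so the blocked calls are not used in the text.

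Depth is unknown for the RNA values. Fosl1 and Fosl2 were under the filter on low values. Without that filter Fosl2 was called lower (log2 difference -0.30, SE 0.07, adjusted p = 0.0324, limma) and Fosl1 was not (adjusted p = 0.153), while Batf3 lost its call (adjusted p = 0.0511). With 1 peak list per assay the peaks have no measure of error.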
